A study of Mus musculus with 5 samples.

Results

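The gene desert between Shh and Rnf32 ends in a 140-kb interval beside Rnf32 (chr5:29381087-29521086, mm9), and the contacts of this interval were profiled by 5C in E11.5 CD1 mouse embryos. 5C (chromosome conformation capture carbon copy) counts ligation products between HindIII restriction fragments held together by cross-linking, each read by a forward primer on one fragment and a reverse primer on the other. A contact was taken as a member when exactly 1 of its 2 fragments had its midpoint in the interval and the fragments were at least 56 kb apart, and 3744 of the 33306 fragment pairs in each library met this rule. The groups were limb buds (2 biological replicates), bodies without limbs and heads (1 sample) and heads (1 sample, sequenced as 2 technical libraries whose reads were summed). Each sample was a pool of embryos, and each tissue a mixture of cell types in which few limb cells express Shh. Nothing was treated or mutated in any group. Because body and head are 1 sample each, differences between tissues have a replicate check in limb only.

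Shh encodes a secreted signal that patterns the limb, the neural tube and the face, and it is switched on in each tissue by enhancers scattered through the gene desert upstream of it. The limb enhancer, the ZRS, lies farthest away, in an intron of Lmbr1, a gene named after limb malformations. Between these ends lie forebrain and other brain enhancers such as SBE4. Contacts in such a regulatory domain are frequent inside it and drop at its edges, which here lie near Shh on one side and in Lmbr1 on the other. The study asked how this domain is folded in limb and in non-limb tissue. The interval next to Rnf32 sits between the desert and the ZRS, and the annotation places 0 genes in it. The nearest gene on the desert side, the long non-coding RNA 9530036O11Rik, ends 121 kb before it, and Rnf32, a RING finger gene, starts 1.45 kb after it.

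The interval was read through 23 HindIII fragments, 11 with forward and 12 with reverse primers, of 354 in the Shh region. They cover 58.0% of its bases and run from 119 to 12548 bases in length, with a median of 2658 against 2427 in the whole region. The longest stretch with no fragment was 15872 bases (29438525 to 29454396), so the middle of the interval was sampled least. Its base composition was 40.9% GC, against 43.5% in the region as a whole.

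The ends of the fragments that carried the strongest contacts, and of the fragment with the lowest interaction frequency in limb, are printed because a 5C read is made only where such a cut end is joined to another. The HindIII site is in capitals, with 22 bases of the mm9 plus strand on each side. Which of its ends a primer anneals to is not given in the sources used here. Fragments 353 and 361 lie in the interval and are joined, at long range, to fragments 231 and 69. Fragment 371 also lies in the interval and is its longest.
Fragment 353, left end, chr5:29411503-29411552: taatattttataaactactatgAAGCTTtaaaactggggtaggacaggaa
Fragment 353, right end, chr5:29412778-29412827: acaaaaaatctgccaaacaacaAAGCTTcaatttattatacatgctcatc
Fragment 231, left end, chr5:29049979-29050028: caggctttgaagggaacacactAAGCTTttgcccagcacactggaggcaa
Fragment 231, right end, chr5:29051215-29051264: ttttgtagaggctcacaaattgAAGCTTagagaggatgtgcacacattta
Fragment 361, left end, chr5:29426327-29426376: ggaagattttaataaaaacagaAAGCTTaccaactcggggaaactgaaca
Fragment 361, right end, chr5:29436129-29436178: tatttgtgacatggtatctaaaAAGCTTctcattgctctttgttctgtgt
Fragment 69, left end, chr5:28547705-28547754: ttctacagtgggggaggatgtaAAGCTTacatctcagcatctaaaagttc
Fragment 69, right end, chr5:28548333-28548382: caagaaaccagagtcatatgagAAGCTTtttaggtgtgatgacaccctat
Fragment 371, left end, chr5:29471046-29471095: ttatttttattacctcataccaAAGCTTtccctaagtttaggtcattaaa
Fragment 371, right end, chr5:29483594-29483643: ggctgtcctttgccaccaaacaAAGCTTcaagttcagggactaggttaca

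The members held 36712 of 675954 reads in limb replicate 1 (5.43%), 101123 of 1714491 in limb replicate 2 (5.90%) and 42718 of 1056071 in body (4.04%). Head had 69131 of 1048682 and 57197 of 931061 in its 2 libraries (6.59% and 6.14%). Of the members, 37.9% and 29.5% were unread in limb, 22.1% in body and, by library, 44.1% and 58.9% in head. Reads were therefore spread most evenly in body and least in head library 2. The smallest interaction frequency that 3 reads on 1 pair can show was between 0.00175 and 0.00444 in the 5 libraries. Some pairs were read far more than all pairs around them. These isolated contacts are pairs with 100 reads or more, exceeding by 20 times or more any other pair formed by the 2 neighbouring fragments on each side, in at least 2 libraries. The region held 8, which took 12.7% and 7.40% of all reads in the limb replicates, but 0.134% of body reads and 5.33% and 16.2% of those of the head libraries. Because body is 1 library, a contact isolated in body alone could not be among them. How far this rule sets the low share in body was not tested. A lower limit of 5 times, chosen after the data were seen, gives 19, of which 5 are members. Only 1 of the 8 is a member, but the others enter the expected values used below, so the partner values below are given with all pairs and, where removal moves them by more than the limb spread, without them. PCR reads without molecular identifiers are not independent molecules, so the Wilson 95% intervals printed here cover counting error only.

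Interaction frequency is the number of reads divided by all reads of the library and multiplied by 1000, averaged over the fragment pairs concerned with unread pairs as 0. It was averaged here over 28-kb windows on either side of the interval. In limb, contacts were most frequent with the nearest desert on one side and with Rnf32 and Lmbr1 on the other. In body the Rnf32 window was only at rank 10 (0.0198). In limb the 3 highest partner windows were at 29353087 to 29381086 (0.0394 ± 0.0124, SD, n = 2), at 29269087 to 29297086 (0.0368 ± 0.00281) and at 29605087 to 29633086 (0.0315 ± 0.00519). The first 2 of these are gene desert, and the third lies in Lmbr1. The first rests on only 14 pairs at 56 kb or more. In body the first 3 were the same adjacent desert window (0.0350), the desert window at 29325087 to 29353086 (0.0328) and the one at 29269087 to 29297086 (0.0297). In head they were the adjacent window (0.0492), a window of the upstream desert at 29045087 to 29073086 (0.0475) and the Rnf32 window (0.0362). The second of the head windows holds the most-read fragment pair described below.

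**Figure D1:**
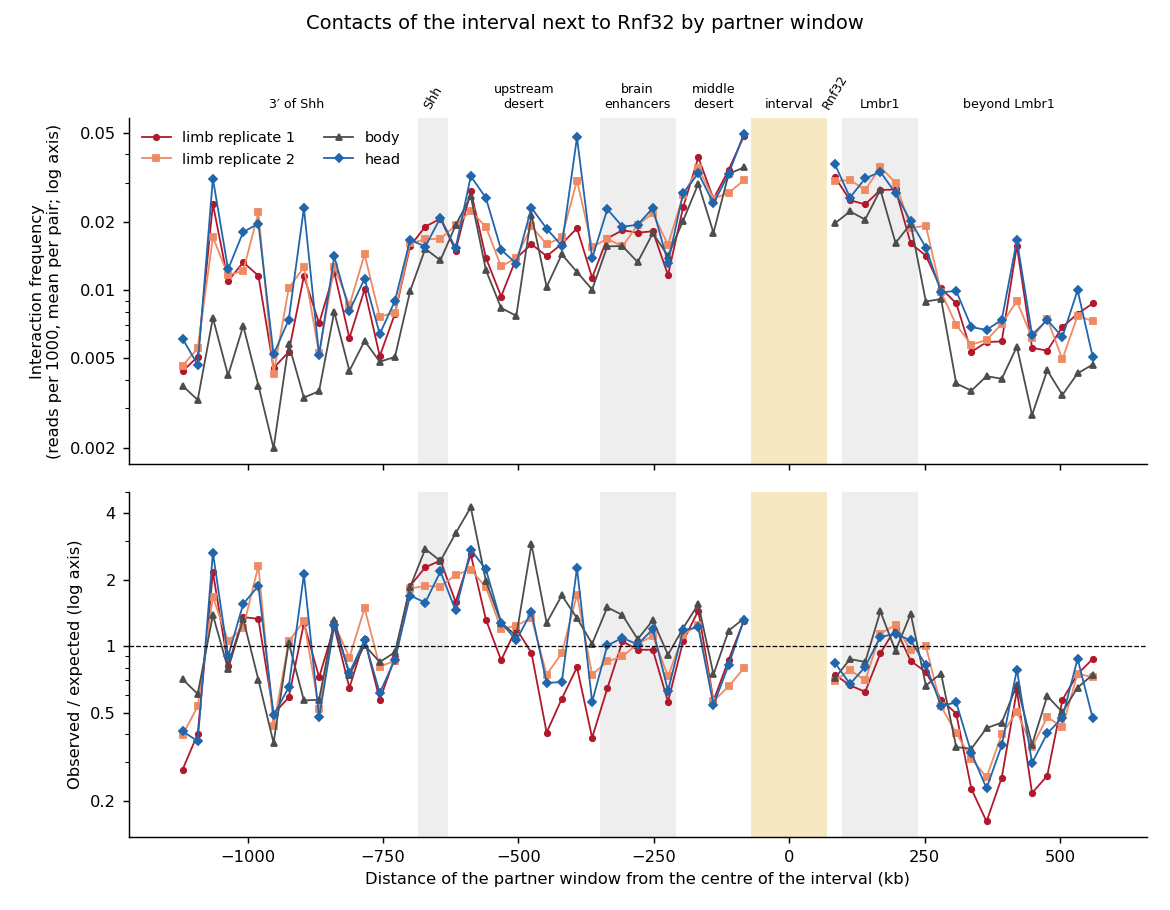
Contacts of the interval with each 28-kb partner window, plotted by the distance of the window from the centre of the interval in kb, negative towards Shh. The upper panel gives interaction frequency in reads per 1000 and the lower panel observed over expected, both on log axes, with 1 line per sample; the shaded bands are the named intervals. The 4 lines run together with a fall beyond Lmbr1 in every sample and single high points in the domain 3′ of Shh and at -392 kb in limb replicate 2 and head.

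The 4 samples had profiles of like shape. Across the 56 partner windows, which share libraries and primers and are not independent, Spearman's rank correlation was 0.914 between the limb replicates, 0.880 and 0.881 between each of them and body, 0.928 and 0.928 between each of them and head, and 0.813 between body and head. With the isolated contact removed the last value was 0.858.

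Contacts of the interval with Shh were above the mean for their separation, and those with the domain beyond Lmbr1 below it, in every sample. Observed over expected divides the reads of the members by the mean reads of all pairs of the Shh region at the same separation in the same library. With the 2 windows of Shh (28765087 to 28821086, 115 pairs) the members had 1551 and 3328 reads (limb), 1754 (body) and 4160 (head). Observed over expected was 2.36 (2.24 to 2.48) in limb replicate 1, 1.87 (1.80 to 1.93) in limb replicate 2, 2.59 (2.47 to 2.72) in body and 1.87 (1.81 to 1.93) in head. The limb mean was 2.11 ± 0.347 (SD, n = 2). The head value falls beside limb replicate 2, and the body value exceeds limb replicate 1 by less than the limb replicates differ. Few Shh pairs were unread, 18.3% and 13.9% (limb), 11.3% (body) and 15.7% (head), against 37.9% and 29.5% of all members in the limb replicates. Over pairs with at least 1 read alone, observed over expected with Shh was 1.26 (limb mean), 1.93 (body) and 1.20 (head). Limb had an interaction frequency with Shh of 0.0184 ± 0.00217, body one of 0.0144 and head one of 0.0183.

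The excess was not limited to the gene. The windows on either side of Shh, from 28737087 to 28765086 towards Rbm33 and from 28821087 to 28849086 in the desert, had observed over expected of 1.85 ± 0.0362 and 1.84 ± 0.366 in limb, beside 2.07 ± 0.284 and 2.15 ± 0.411 in the 2 Shh windows. The highest value on this stretch was in the next desert window, from 28849087 to 28877086, where limb had 2.41 ± 0.267, body 4.25 and head 2.74 on 12 pairs. Among the 10 fragments of the Shh windows, 7 were above 1 with the interval in all 4 samples. The fragment from 28770697 to 28780563, past the 3′ end of Shh, was highest in limb and body, at 4.92 and 3.84 (limb) and 6.84 (body). In head it had 2.72, below 2 other fragments at 3.08 and 3.07. The fragment that holds the 5′ end of Shh (28789547 to 28793709) was below 1 in every sample, at 0.856 and 0.276 (limb), 0.326 (body) and 0.294 (head). Over all its partners that fragment was also low, at 0.691, 0.388, 0.245 and 0.425 in the same order, and the one past the 3′ end was high over all its partners, at 1.80, 1.75, 2.92 and 1.68. The part of primer yield in these single-fragment values was not tested. With both primers' totals balanced, the whole interval had values with the 2 Shh windows of 1.90 (limb mean), 2.62 (body) and 1.79 (head).

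**Figure D2:**
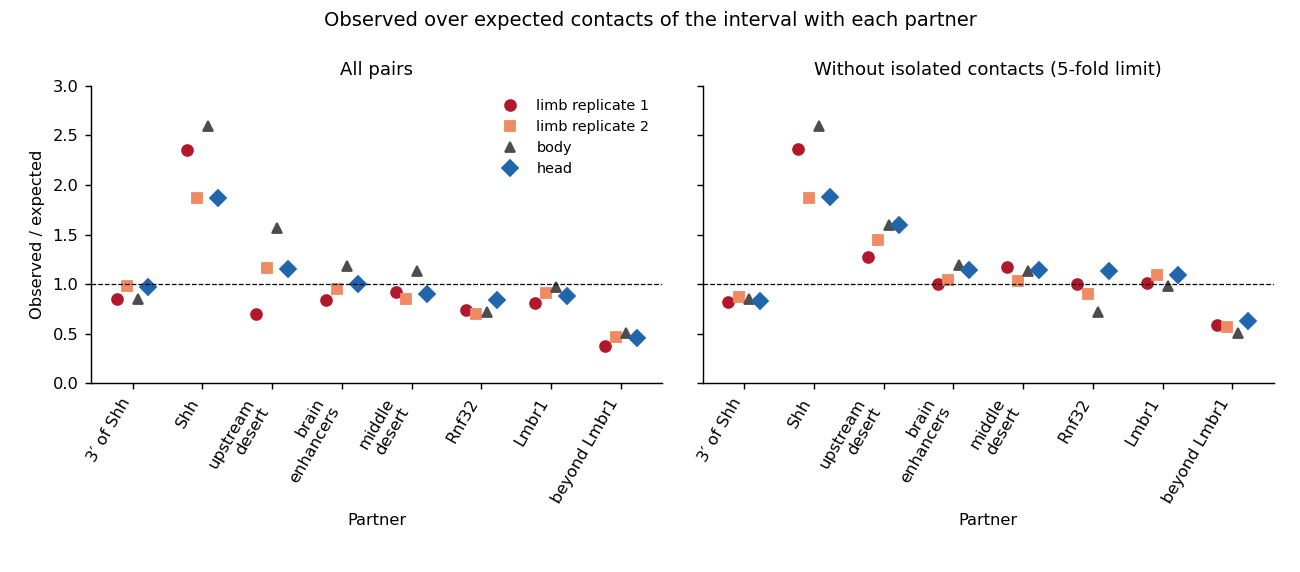
Observed over expected of the interval with each of its 8 partners, 1 point per sample, with all pairs (left) and without isolated contacts by a 5-fold limit (right); the dashed line is 1. Shh stands above the other partners and the domain beyond Lmbr1 below them in all 4 samples in both panels, and the desert upstream of Shh rises above 1 in limb replicate 1 only on the right.

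With Lmbr1, the gene that carries the ZRS, contacts were near what the separation gave. The 5 windows of Lmbr1 (29549087 to 29689086, 367 pairs) took 17.4% and 18.8% of member reads (limb), 19.02% (body) and 16.4% (head), for 9.80% of the member pairs. Limb had an observed over expected of 0.856 ± 0.0727, body 0.974 and head 0.878. Removing isolated contacts gave 1.05 ± 0.0557, 0.978 and 1.10. The window assigned to the ZRS (29633087 to 29661086) had an interaction frequency with the interval of 0.0280 and 0.0300 (limb), 0.0162 (body) and 0.0269 (head). Its observed over expected was 1.21 and 1.25 (limb), 0.953 (body) and 1.14 (head). Body was lowest for this window, and head lay below both limb replicates by less than the limb replicates differ from body. The window beside it, also in Lmbr1 (29605087 to 29633086), did not keep that order, with 0.928 and 1.14 (limb), 1.44 (body) and 1.10 (head). Without isolated contacts the ZRS window had 1.32 and 1.31 (limb), 0.954 (body) and 1.24 (head). The window beside it then had 1.18 and 1.38 (limb), 1.44 (body) and 1.39 (head), so body no longer stood apart there. The window of SBE4 (29101087 to 29129086) had an interaction frequency of 0.0170 and 0.0169 (limb), 0.0157 (body) and 0.0229 (head). Its observed over expected was, in that order, 0.644, 0.853, 1.498 and 1.007, or 1.16, 1.10, 1.51 and 1.52 without isolated contacts.

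The domain beyond Lmbr1 (29689087 to 30025086, 862 pairs) begins inside that gene, which runs to 29704930, and so holds its start. This domain had the lowest observed over expected of the 8 partners in every sample. It was 0.379 and 0.464 in the limb replicates (mean 0.421 ± 0.0604), 0.506 in body and 0.459 in head. Without isolated contacts these became 0.611 and 0.573, 0.510 and 0.642, so the order of the tissues turned while all stayed below 1. The domain 3′ of Shh (28317087 to 28765086, 1023 pairs), which is farther away, had 0.914 ± 0.0935 (limb), 0.853 (body) and 0.974 (head). In interaction frequency the outer domains were 0.00912 ± 0.000842 and 0.00791 ± 0.0000898 in limb, 0.00483 and 0.00464 in body and 0.0110 and 0.00881 in head (3′ of Shh first). Body was thus 0.530 and 0.587 times limb, while its observed over expected was 0.933 and 1.20 times that of limb.

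The interval lies closer to the domain edge on its Lmbr1 side than on its Shh side, so both sides were compared at the same separations. For partners up to the edge in Lmbr1, over 9 bins of separation, the Lmbr1 side had 0.907 and 1.08 times the interaction frequency of the Shh side in the limb replicates, 0.912 times in body and 1.02 times in head. Beyond the edge, over 16 bins, it had 0.545 and 0.490 times (limb), 0.411 (body) and 0.467 (head). In limb replicate 1 this was 0.00889 on the Lmbr1 side against 0.0163 at the same separations towards Shh. The sides were alike inside the domain to within the limb spread, and differed beyond it in each of the 4 samples by more than that spread, with no overlap between the inside and the beyond values. Without isolated contacts by the 5-fold limit the ratios beyond the edge were 0.533 and 0.507 (limb), 0.411 (body) and 0.486 (head).

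The desert between the interval and Shh was less even. Observed over expected with the desert upstream of Shh (28821087 to 29101086) was 0.694 and 1.17 (limb), 1.57 (body) and 1.15 (head). Without isolated contacts it was 1.28 and 1.56, 1.59 and 1.78, which moves the limb mean from 0.930 to 1.42. With the brain enhancers (29101087 to 29241086) limb had 0.897 ± 0.0800, body 1.19 and head 0.997, and with the middle desert (29241087 to 29381086) 0.883 ± 0.050, 1.13 and 0.902. Without isolated contacts the brain enhancers had 1.01 ± 0.0259, 1.19 and 1.13 and the middle desert 1.10 ± 0.0979, 1.13 and 1.14, so limb and head moved from below to above 1 and body was no longer above both in the middle desert. The Rnf32 window gave 0.720 ± 0.0324, 0.715 and 0.841 for the pairs at 56 kb or more, which leave out its nearest contacts, and 0.952 ± 0.0755, 0.719 and 1.13 without isolated contacts.

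Among gene starts, those of Shh, Gm10290 and, with all pairs, Insig1 were above 1 in every sample, and those past Lmbr1 were below 1. The start of Gm10290, a predicted gene, lies in the desert window on 12 pairs named above, with 2.41 ± 0.267, 4.25 and 2.74, and was above that of Shh in each sample. The 28-kb window with the Shh start had 2.15 ± 0.411 (limb), 2.43 (body) and 2.18 (head). That of Insig1, a regulator of cholesterol synthesis 1064 kb from the centre of the interval, had 1.92 ± 0.350, 1.38 and 2.65, but 1.00 ± 0.218, 1.30 and 0.936 once isolated contacts were set by a lower limit of 5 times and removed. En2, a homeobox gene of the midbrain and hindbrain, had 0.463 ± 0.0419, 0.365 and 0.486. Cnpy1 had 0.621 ± 0.146, 0.572 and 0.476, and Rbm33, which encodes an RNA-binding protein, 0.768 ± 0.170, 0.741 and 0.758. The window with the start of Lmbr1 had 0.882 ± 0.167, 0.664 and 0.820. Past it, Nom1 had 0.450 ± 0.0641, 0.349 and 0.556, Mnx1, a homeobox gene of motor neurons, 0.208 ± 0.0667, 0.426 and 0.227, and the ubiquitin ligase gene Ube3c 0.283 ± 0.0935, 0.359 and 0.296. Without the isolated contacts of the lower limit, Mnx1 and Ube3c were at 0.423 and 0.505 (limb means) and at 0.472 and 0.530 (head). The starts of Nom1, Mnx1 and Ube3c were below 1 in all samples in either case.

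The 23 fragments of the interval did not contribute alike. The 1 isolated member, a contact of fragment 361, was left out of the means given here. Mean interaction frequency with all other partners ran from 0.00411 to 0.0261 in limb replicate 1 and from 0.00311 to 0.0294 in limb replicate 2. It ran from 0.00293 to 0.0246 in body and from 0.00410 to 0.0259 in head. Fragment 371 was lowest in limb, at 0.00411 and 0.00311, with 0.00483 in body and 0.00469 in head, although it is the longest at 12548 bases. Fragment 361 (29426352 to 29436153) was highest in limb and body, at 0.0261, 0.0294 and 0.0246, and fragment 342 (29384407 to 29389154) in head, at 0.0259. With the isolated contact counted, fragment 361 had more head reads than fragment 342, 9624 on 166 pairs against 8422 on 164. The order of the fragments was much the same in all samples, with Spearman's rho of 0.931 between the limb replicates and between 0.786 and 0.894 for the other pairs of samples (23 fragments that share primers across libraries). Length was weakly related to it, with rho between 0.0682 in head and 0.378 in body.

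**Figure D3:**
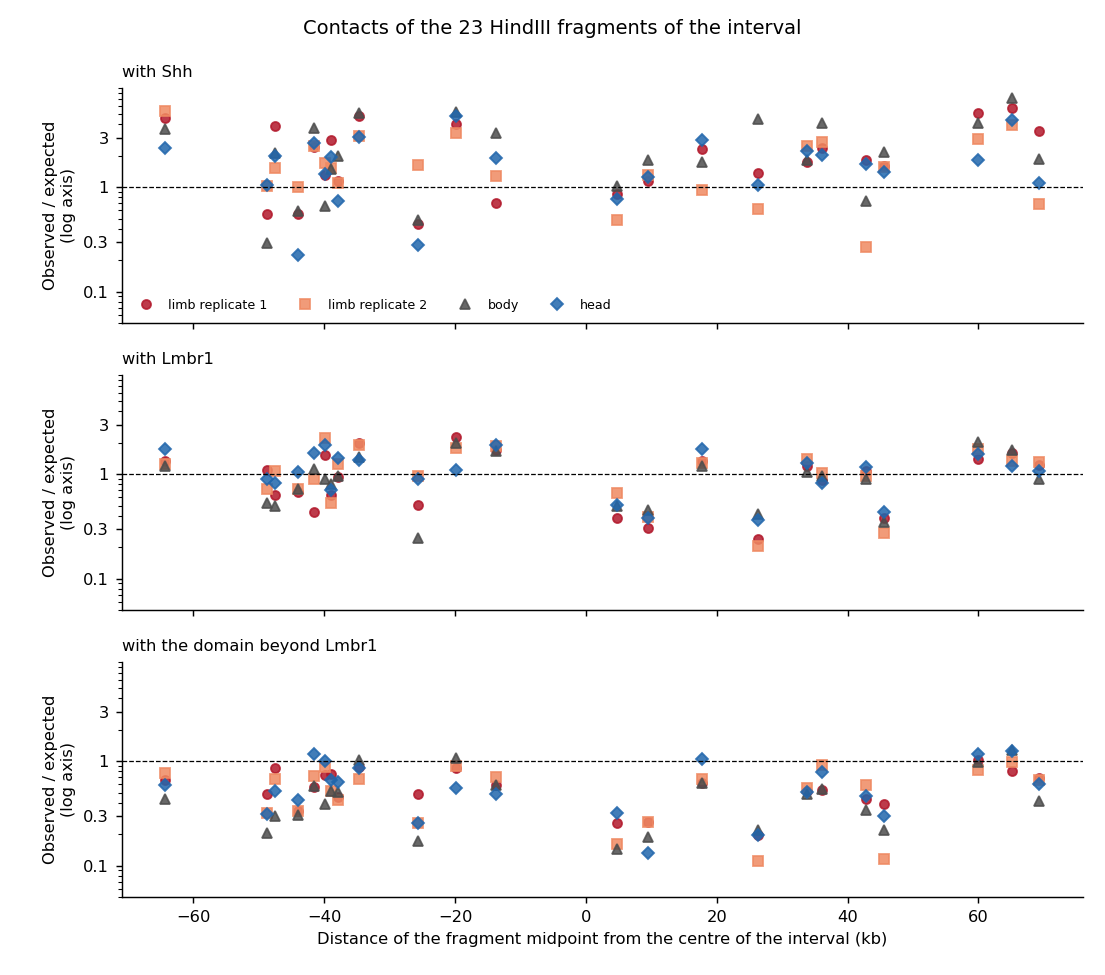
Observed over expected of each of the 23 fragments of the interval with Shh, with Lmbr1 and with the domain beyond Lmbr1 (log axes), by the distance of the fragment midpoint from the centre of the interval in kb, 1 symbol per sample, without isolated contacts by the 5-fold limit. With Shh 12 fragments are above 1 in all 4 samples, and beyond Lmbr1 16 are below 1 in all 4 and none above 1 in all 4.

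Fragment by fragment, the contrast between Shh and the domain beyond Lmbr1 was seen in nearly all. After removal of isolated contacts by the 5-fold limit, observed over expected with Shh exceeded that with the domain beyond Lmbr1 in 22 of 23 fragments in each limb replicate, in 23 in body and in 22 in head. With Shh 12 fragments were above 1 in all 4 samples and 1 was below 1 in all 4. With the domain beyond Lmbr1 the counts were 0 and 16. The median over fragments with Shh was 1.82 and 1.54 (limb), 1.98 (body) and 1.81 (head). The highest single value, 7.23 in body, was that of the fragment from 29514013 to 29518402, near the Rnf32 end, which also had 5.80 and 3.94 in the limb replicates and 4.42 in head. These values rest on 5 pairs. Over all its partners that fragment was also high, at 1.52 and 1.70 (limb), 2.25 (body) and 1.67 (head). By window, the middle of the interval (29437087 to 29465086, 3 fragments) was lowest with Shh in limb, at 0.965 ± 0.0804, while body had 2.06 and head 1.32 there. The 4 other windows had between 1.82 ± 0.192 and 2.65 ± 1.14 in limb. The low value was not particular to Shh. With all pairs, the middle window was also lowest in limb with the middle desert (0.557 ± 0.0322), the domain 3′ of Shh (0.517 ± 0.0158) and the domain beyond Lmbr1 (0.259 ± 0.0545). With Lmbr1 it was not lowest (0.653 ± 0.118).

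The 5 most-read pairs of the interval, ranked by interaction frequency averaged over limb, body and head, were single fragment pairs at long range. They were frequent in limb and head and had few reads in body. High values in limb and head suffice for this list, so it does not show which pairs body read most. The most-read member pair in body had 206 reads. Fragment 353 with fragment 231 in the upstream desert (29050004 to 29051239, 362 kb apart) had 159 and 1485 reads in the limb replicates, only 9 in body, and by library 823 and 2165 in head. Fragment 361 with fragment 69 in the domain 3′ of Shh (28547730 to 28548357, 888 kb apart) had 341, 922, 23, 553 and 1935 reads in the same order, and it is the only member among the isolated contacts. Fragment 342 with fragment 25, near Insig1 (28385728 to 28388130, 1001 kb apart), had 341, 586, 25, 297 and 1262. Fragment 373 with fragment 41 (28469222 to 28469868, 1018 kb apart) had 188, 1318, 1, 317 and 984. Fragment 354 with fragment 517 beyond Lmbr1 (29870040 to 29874795, 461 kb apart) had 258, 178, 7, 156 and 501. In limb and head these pairs were between 8.87 and 94.5 times the expected reads. Body had 0.879, 3.77, 4.27, 0.171 and 0.889 times the expected reads in the order listed, on between 1 and 25 reads each. All 5 became isolated contacts when the limit was set at 5 times, and they then held 3.51% and 4.44% of member reads in limb, 0.152% in body and, by library, 3.10% and 11.97% in head.

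**Figure D4:**
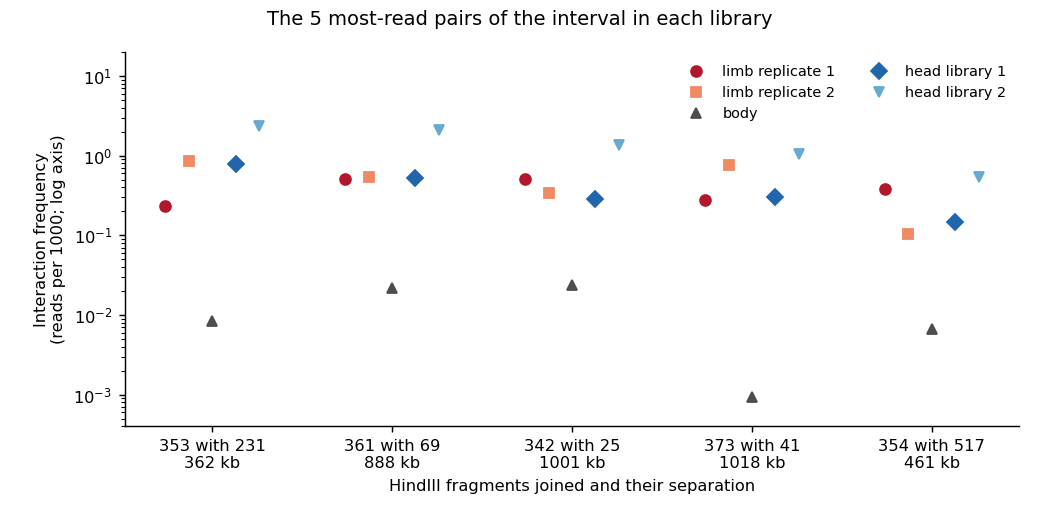
Interaction frequency (reads per 1000, log axis) of the 5 most-read fragment pairs of the interval in each of the 5 libraries, named by their fragments and with their separation in kb. Body lies below the other 4 libraries in all 5 pairs, and head library 2 is the highest in each. The pairs were picked by their average over limb, body and head, which high values in limb and head can set.

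No difference between limb and non-limb tissue passed the test for any partner of the interval. Reads were summed over the pairs between 9 named intervals that tile the region, and limb was compared with body and head by edgeR's quasi-likelihood test over all 43 interval pairs with enough separation. DESeq2 also called none of the 8 that involve the interval. By edgeR none of the 43 had a Benjamini-Hochberg adjusted p under 0.05 (background 0.0% called), none of the 8 that involve the interval, and none of these 8 had an unadjusted p under 0.05. With Shh the reads per 1000 were 2.29 and 1.94 (limb), 1.66 (body) and 2.10 (head), and the log2 fold change of limb over body and head was -0.10 ± 0.23 (SE, edgeR adjusted p = 0.992). With Lmbr1 they were 9.47 and 11.1, 7.69 and 10.5, and the change was -0.09 ± 0.16 (edgeR adjusted p = 0.951). With the domain 3′ of Shh they were 8.73 and 9.94, 4.94 and 11.2, with a change of 0.03 ± 0.20 (edgeR adjusted p = 0.992), and with the domain beyond Lmbr1 6.87 and 6.76, 4.00 and 7.59, with 0.03 ± 0.17 (edgeR adjusted p = 0.992). In all 4 the reads per 1000 were lowest in body; head lay between the limb replicates with Shh and Lmbr1 and above both with the outer domains. The log2 fold changes are scaled by TMM to the reads of the interval pairs. Scaled to all reads of each library, an alternative chosen after the data were seen, they became 0.17 with Shh, 0.18 with Lmbr1, 0.21 with the domain 3′ of Shh and 0.23 with the domain beyond Lmbr1, so the direction with Shh and Lmbr1 depends on the scaling, and none passed (edgeR adjusted p = 0.970, background 0.0% called). The largest change was with the desert upstream of Shh, -0.25 ± 0.16 (edgeR adjusted p = 0.908), which was -0.032 when scaled to all reads. In simulated counts of this design the test found 7 of 10 interval pairs changed by 1 on the log2 scale, so smaller changes could be missed.

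**Figure D5:**
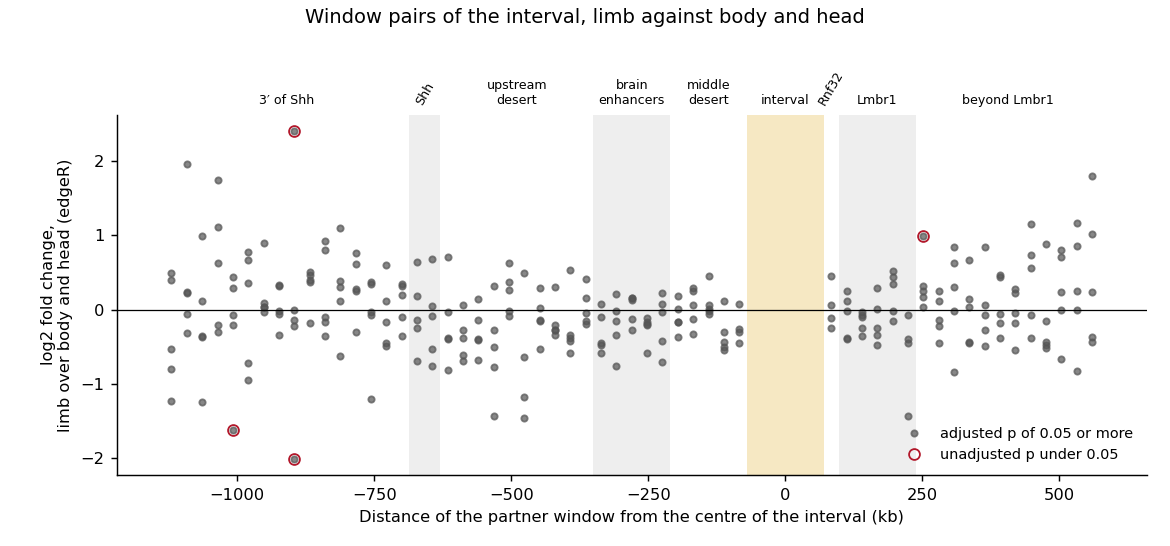
The log2 fold change of limb over body and head (edgeR) for the 276 tested window pairs that join the interval to another window, by the distance of that window from the centre of the interval in kb. Open circles mark the 4 with an unadjusted p under 0.05, and no pair passed after adjustment.

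At 28-kb resolution none of the 276 window pairs of the interval passed an adjusted p of 0.05 by edgeR (background 0.0% of 1753), and 4 (1.45%) had an unadjusted p under 0.05, against 3.48% of all window pairs. DESeq2 called none of them either, with 8 at an unadjusted p under 0.05. The median log2 fold change of the members was -0.06, beside -0.02 for all window pairs. The largest increase in limb, not past the threshold, joined 29381087 to 29409086 with 28541087 to 28569086 in the domain 3′ of Shh, with 65 and 124 reads (limb), 15 (body) and 26 (head) (2.40 ± 0.85). The next largest joined the same window of the interval with 28345087 to 28373086, with 24 and 101 limb reads, 10 body reads and 23 head reads (1.96 ± 1.07). The largest decrease joined 29437087 to 29465086 with 28541087 to 28569086, the partner of the largest increase, with 16 and 58 reads (limb), 18 (body) and 432 (head) (-2.00 ± 0.79). The second largest joined 29493087 to 29521086 with 28429087 to 28457086, with 24 and 88 limb reads, 81 body reads and 336 head reads (-1.62 ± 0.60). All these partners lie in the domain 3′ of Shh. In simulated counts of this design edgeR found 0 of 199 window pairs changed by 1 on the log2 scale and 138 of 196 changed by 2, so changes of 2-fold were not detectable with these samples. Both limb replicates exceeded body and head in 57 of 278 member window pairs (20.5%), against 23.4% of all window pairs, and lay below both in 12 (4.32%), against 6.85%. Body was lowest of the 4 samples in 150 (54.0%), against 54.7%. These shares are near or below those of the whole region.

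The only calls depended on leaving out head. Without head, limb was compared with body alone, whose single sample is assumed to vary as the limb replicates do, and edgeR then called 3 of the 276 window pairs, all higher in limb (1.09%, background 0.514%). They join 29381087 to 29409086 with the Insig1 window (log2 fold change 3.29 ± 0.48, adjusted p = 0.0126), 29465087 to 29493086 with the window of fragment 41 (4.90 ± 0.68, adjusted p = 0.0106), and 29409087 to 29437086 with the window of fragment 69 (2.00 ± 0.35, adjusted p = 0.0372). In each, 1 of the most-read pairs named above held between 75.0% and 96.6% of the limb reads. Of the 8 interval pairs, 2 passed without head, against 37.2% of all 43, a share not above the background. They join the brain enhancers and the middle desert, with log2 fold changes of limb over body, scaled by TMM, of -0.39 and -0.35. In reads per 1000 both limb replicates were instead above body. The values were 6.79 and 7.52 against 6.13 (brain enhancers) and 9.14 and 8.72 against 7.42 (middle desert).

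Against the desert next to it, the interval had a lower observed over expected with Lmbr1 in every sample. For this, 2 stretches of the same 140 kb were compared with it within each sample, the middle desert and the brain enhancers, each with 4 partners, by an exact two-sided sign-flip test over the 4 samples, whose smallest possible p is 0.125, so no comparison could reach 0.05. With Lmbr1 the interval had 0.705 times the observed over expected of the middle desert (log2 ratio -0.50 ± 0.070, SD, n = 4; lower in 4 of 4 samples; exact p = 0.125, adjusted over 8 comparisons 0.250). In limb replicate 1 the values were 0.804 and 1.09, in limb replicate 2 0.907 and 1.33, in body 0.974 and 1.45 and in head 0.878 and 1.20. With the domain beyond Lmbr1 the ratio to the middle desert was 0.563 (log2 -0.83 ± 0.36, 0 of 4 higher; exact p = 0.125), or 0.792 without isolated contacts. With Shh the interval and the middle desert differed by a log2 ratio of -0.04 ± 0.062 (exact p = 0.375). Against the brain enhancers the Shh ratio depended on 1 kind of contact. It was -1.90 and -1.73 in the limb replicates, -1.98 in head and 0.40 in body (mean -1.30 ± 1.14; exact p = 0.250). Without isolated contacts it was 0.77 and 0.43 in the limb replicates, 0.59 in head and 0.54 in body (mean 0.58 ± 0.14, higher in 4 of 4; exact p = 0.125), which turns its direction. With Lmbr1 the ratio to the brain enhancers was -0.04 ± 0.37 with all pairs and -0.48 ± 0.079 without isolated contacts, lower in 4 of 4. With the domain 3′ of Shh the interval had 1.36 times the observed over expected of the brain enhancers (log2 0.44 ± 0.16, higher in 4 of 4; exact p = 0.125), and with the domain beyond Lmbr1 it had 0.621 times (-0.69 ± 0.31, higher in 0 of 4; exact p = 0.125). Without isolated contacts these ratios were nearer to 1, at 1.20 (higher in 4 of 4) and 0.786 (higher in 0 of 4).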

How the data were processed

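The authors made 5C libraries from E11.5 CD1 embryos: 2 of separate limb samples, 1 of body and 2 technical ones of a head sample. They sequenced them on an Ion PGM and used a Torrent 5C pipeline on Galaxy, whose versions are not given in the sources used here. The deposited values are counts of reads per forward and reverse HindIII fragment pair, not normalised, on mm9. A deposited column of signed distances between fragments, a whole-number score in bases, set the separations. PCR duplicates cannot be removed from such counts.

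Counts of the head libraries were summed. Interaction frequency used the sum of deposited counts as the total. Windows of 28 kb were counted from 28317087 on chromosome 5. Expected values were means over all pairs of the Shh region in 28-kb bins of separation. The windows of SBE4 and the ZRS follow the study's map. Members, lists and named contacts were chosen with earlier results of these data known. Named were the 8 partners, the 3 highest partner windows per tissue, the 5 most-read pairs, isolated members, up to 5 window pairs past the test or else the 2 largest changes each way, and the windows of SBE4 and the ZRS; gene-start windows and single fragments were added after values were seen.

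Limb was compared with body and head by edgeR 4.0.16 (quasi-likelihood, TMM; filterByExpr for window pairs) in R 4.3.3 with Benjamini-Hochberg adjustment at 0.05, and by DESeq2 1.42.0. The common biological coefficient of variation was 0.382 for window pairs and 0.212 for interval pairs. Measures were tested on simulated data; with contacts to Shh set to 2 times the expected, the median observed over expected of 20 tables was 1.92. Alternatives were scaling to the sums of the pairs tested or to all reads, and no count filter. Others were 56-kb windows, blocks of 5 windows, single pairs and removal of isolated contacts. All counts of the Shh region were also capped at the 99th percentile of their 28-kb bin of separation in each library. Further settings were other bins and separations, balanced primer totals, read pairs only, edges pulled in by 14 kb, and each sample or library left out. Sequences and genes are from NCBIM37 and GENCODE vM1. Other steps used Python 3.11.15 (pandas 2.3.3, numpy 2.4.6, scipy 1.17.1, pysam 0.24.0 and matplotlib 3.10.9). FISH data were not used here.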

Additional observations from a re-analysis of the deposited data

Results flagged for a closer look

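Contacts between the interval and the Usp22 control region on chromosome 11 enter no comparison above, and 1 of these 127 pairs was read more often than any member pair in 4 of the 5 libraries. It joins the interval fragment from 29508039 to 29514012 with the Usp22 fragment from 60918191 to 60924238, and the limb replicates gave 9181 and 9854 reads of it, body 162, and head libraries 1 and 2 gave 4345 and 14700. It was flagged because it is a signal outside the main measurement that stands far above the other pairs between the chromosomes. Without it the mean interaction frequency of the interval with Usp22 was 0.000881, 0.000694, 0.000301, 0.00166 and 0.00328 in the same order, against 0.0145, 0.0158, 0.0108, 0.0176 and 0.0164 for the members. Like the most-read members, which were picked by their average over limb, body and head, it was least read in body. Its cause was not tested.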

How the results depend on the processing

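No paired analysis was possible because body is 1 sample and the head libraries are technical repeats, so replicate numbers pair no samples. The log2 fold changes of limb over body and head did not pass the test with all samples, and most turned sign under some setting. Scaled to all reads of each library, chosen after the data were seen, the change turned to 0.17 with Shh, 0.18 with Lmbr1, 0.022 with the brain enhancers, 0.11 with the middle desert and 0.15 with Rnf32; with the desert upstream of Shh, between -0.40 and -0.032, it turned under no setting run. With the domain 3′ of Shh it turned to -0.038 when scaled to the sums of the pairs tested, -0.071 with head library 2 alone, and -0.045 without limb replicate 2; beyond Lmbr1 it turned to -0.051 by those sums and -0.028 without limb replicate 1; with Shh it turned to 0.030 without limb replicate 2. Leaving out body turned these to -0.20, -0.090 and 0.076, and turned Lmbr1 to 0.036 and the middle desert to 0.042; leaving out head turned Rnf32 to 0.038 and brought the brain enhancers and the middle desert past the threshold. With each sample left out in turn the ranges were -0.20 to 0.30 (3′ of Shh), -0.27 to 0.076 (Shh), -0.20 to 0.036 (Lmbr1), -0.090 to 0.15 (beyond Lmbr1), -0.35 to 0.042 (middle desert), -0.39 to -0.089 (brain enhancers) and -0.15 to 0.038 (Rnf32), and window pairs called ranged from 0 to 3, the 3 without head. Limb observed over expected with Shh moved to 1.26 over read pairs and to 1.74 with the interval's edges pulled in by 14 kb. With Lmbr1 it moved to 1.05 without isolated contacts, 1.05 by the 5-fold limit, 1.08 with capped counts, 1.14 at a minimum separation of 112 kb and 1.03 with balanced counts, which also gave 1.03 with the domain 3′ of Shh. Beyond Lmbr1 the same settings gave 0.592, 0.578 and 0.592, balanced counts 0.616 and read pairs 0.518, all below 1. The side ratio beyond the edge was 0.472 with balanced counts. With 1 limb replicate at a time the ranges were 1.87 to 2.36 (Shh), 0.804 to 0.907 (Lmbr1), 0.848 to 0.980 (3′ of Shh), 0.379 to 0.464 (beyond Lmbr1), and 0.907 to 1.08 and 0.490 to 0.545 for the side ratios inside and beyond the edge. Against the brain enhancers the log2 ratio with Shh turned to 0.58 without isolated contacts, 0.54 with capped counts and 0.57 by the 5-fold limit. Against the middle desert it turned to 0.035 and 0.036 with Shh and to -0.018 and -0.031 with the domain 3′ of Shh, with capped counts and by the 5-fold limit. The cause of these changes was not tested. In simulated counts of this design 2-fold changes of single window pairs were not found, and body and head rest on 1 sample each.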
